A study of Mus musculus with 12 samples.

Results

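The genes described here are the receptors, ligands and transcriptional targets of the Notch pathway in cultured aortic adventitial fibroblasts. They are 10 of the 54352 gene symbols in the deposited count table, chosen by name: the receptors Notch1, Notch2 and Notch3, the ligands Jag1, Jag2 and Dll1, and the target genes Hes1, Hey1, Hey2 and Heyl. Adventitial fibroblasts, which make the collagen-rich outer coat of a vessel, were grown from the aortic root and ascending aorta or from the descending thoracic aorta of wild-type C57Bl/6 mice, with an age of 14 weeks on the labels. Cells of each site received the vehicle (control) or TGFβ at 10 ng/mL for 48 h, with 3 libraries each, so that 12 bulk RNA-seq libraries fall into 4 groups: ascending control, ascending TGFβ, descending control and descending TGFβ. All groups share the wild-type genotype, and no group carries a transgene or a deletion. The cells are passaged primary cultures rather than freshly isolated cells, and no sort is named in the sources used here. The sources used here do not say if libraries that carry one replicate number share their mice or are separate cultures, so the p-values measure only the spread between these samples, which may in part be technical.

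Notch receptors are single-pass proteins at the cell surface that bind Jagged and Delta ligands on a neighbouring cell. Binding exposes the receptor to cleavage, first by an ADAM protease outside the membrane and then by γ-secretase within it, and the freed intracellular part enters the nucleus, joins the DNA-binding protein RBPJ and a Mastermind co-activator, and switches on genes of the Hes and Hey families of transcriptional repressors. In the vessel wall the pathway is best known for the specification of arterial endothelium and for the differentiation of smooth muscle and pericytes, in which Notch3 is the characteristic receptor and Jag1 the characteristic ligand. TGFβ, the growth factor added here, acts through SMAD proteins and drives fibroblasts towards a contractile, matrix-producing state.

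One library stood apart from the rest. In descending control replicate 3, 13031 genes were detected, compared with 19337 to 20931 in each of the other 11 libraries, and mitochondrial genes took 11.02% of its counts, compared with 0.703 to 1.03%. Tests of the Notch genes that use the descending controls are therefore given with this library and without it. Library totals were 16250126 to 23892943 counts, with this library the lowest and the others at 18793120 or more. Levels are given as normalised CPM, that is, counts relative to a library total scaled by edgeR's TMM factors, and a count of 3 or fewer in a library was taken as its floor, which lay at 0.117 to 0.207 normalised CPM and covers counting error only. Differences, and the values after "rose by" or "fell by", are log2 fold changes with a standard error (SE), tested with edgeR's two-sided quasi-likelihood F-test, and a gene was called when its Benjamini-Hochberg adjusted p over all genes tested was under 0.05.

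The fibroblast markers of the labelled cell type were present in every group. The summed level of 10 such genes, carried mainly by the matrix genes Fn1, Col1a1, Col1a2 and Col3a1, was 28942 to 45254 normalised CPM over the libraries. With TGFβ the list did not move one way: 4 of its genes were called higher and 6 lower in ascending fibroblasts, beside 55.8% of all genes called. Pdgfra, among the latter, fell by 1.74 (SE 0.047, adjusted p = 9.96e-15) there and fell by 2.14 (SE 0.11, adjusted p = 0.000946) in descending fibroblasts, or by 2.15 (SE 0.055, adjusted p = 9.41e-24) without control replicate 3. Of 10 endothelial markers, Tek was at group means of 24.3 in ascending and 24.2 in descending control and Erg at up to 3.92 with TGFβ, while Pecam1 and Cdh5 stayed at group means of at most 0.208 and 0.0998 normalised CPM. Smooth muscle markers were present. With TGFβ 8 of the 9 tested in ascending fibroblasts were called higher, beside 55.8% of all genes called in either direction. Myh11 was called lower, with group means of 24.1 in control and 15.6 with TGFβ. The smooth muscle sum over 10 genes, carried mainly by Acta2 and Cald1, was 3475 to 3705 in ascending control, 8296 to 8398 in ascending TGFβ, 4489 to 8306 in descending control, with replicate 3 the highest, and 11071 to 11576 in descending TGFβ libraries. The part of these markers in the Notch results was not tested. In these bulk samples, fewer cells of a type and less RNA per cell cannot be told apart.

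Jag1, Hes1, Notch3 and Notch2 were the abundant members, and the other 6 were expressed at lower levels. To compare genes, normalised CPM was divided by the length of the union of a gene's exons in the annotation (GENCODE vM21), giving normalised CPM per kb. Jag1 was the most abundant member on this scale, with group means of 79.6 in ascending control, 57.5 in ascending TGFβ, 57.5 in descending control and 49.3 in descending TGFβ. Hes1 followed with 22, 31.6, 23.6 and 37.1 in the same order of groups. Among the receptors, Notch3 led Notch2 in the control libraries of both sites, at 9.92 to 11.5 against 7.03 to 7.49 normalised CPM per kb in ascending control and 8.59 to 17 against 4.39 to 7.63 in descending control. The order was the opposite with TGFβ, at 2.9 to 3.07 for Notch3 against 6.95 to 7.61 for Notch2 in ascending and 5.42 to 5.91 against 8.36 to 8.87 in descending libraries. Notch1 was lower than both, at 0.422 to 1.93 normalised CPM per kb over the 12 libraries, and the levels of Hey2, Heyl and Hey1 lay between 0 and 2.25. Jag2 and Dll1 were at or near the floor. Jag2 reached at most 25 counts in a library, and Dll1, one of the Delta ligands, at most 14.

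**Figure D1:**
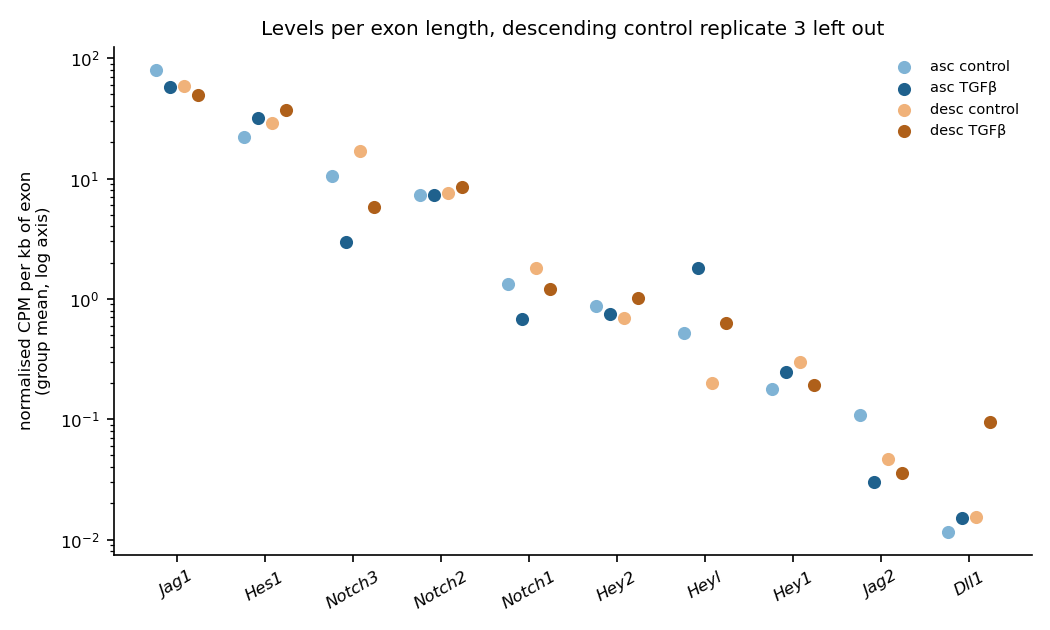
Group means of the 10 members in normalised CPM per kb of exon on a log axis, one colour per group of 3 libraries, with descending control replicate 3 left out of its group. Jag1 and Hes1 lie highest, Notch3 has the widest spread between groups among the abundant genes, and Jag2 and Dll1 lie lowest.

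Filtering on low counts removed Dll1 from every comparison, and Jag2 from TGFβ within descending and from site within TGFβ, so 8 or 9 of the 10 members were tested in each comparison. On the annotation (GRCm38, the mm10 build), Notch1 lies at chr2:26457903-26516663, Notch2 at chr3:98013527-98150361, Notch3 at chr17:32120820-32166852, Jag1 at chr2:137081456-137116644, Hes1 at chr16:30064384-30067796 and Heyl at chr4:123233556-123249875, and counts were summed over their exons. Antisense genes overlap 10.4% of the exon bases of Notch1, 6.03% of those of Notch3 and 20.6% of those of Dll1, and the strand setting of the counting is not given in the sources used here, so reads of such stretches cannot be told apart. Gm42820, a gene on the same strand, overlaps 5.02% of the exon bases of Notch2, where no strand setting would separate the reads.

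To show what the regulated genes carry in front of their start sites, the RefSeq promoter table (GRCm38.p6) was searched in the 250 bases upstream of each start. It held entries for Notch1, Notch2, Notch3, Jag1, Jag2, Dll1 and Hey2, but Hes1, Hey1 and Heyl had none. The motifs searched on both strands were TGGGAA, the core bound by RBPJ, CAGAC, a core bound by SMAD proteins, and CACNAG and CACGTG, which HES and HEY proteins bind. Capitals mark every match to either of the first 2 motifs or to its reverse complement, TTCCCA or GTCTG, and these matches do not overlap each other. Shown are the receptor with the largest fall under TGFβ (Notch3, chr17:32166891-32167140, minus strand), the one member with an RBPJ core match (Hey2, chr10:30842784-30843033, minus strand) and the RBPJ gene itself, which is no member but fell strongly (Rbpj, chr5:53590096-53590345, plus strand, the first of its 2 entries).
Notch3: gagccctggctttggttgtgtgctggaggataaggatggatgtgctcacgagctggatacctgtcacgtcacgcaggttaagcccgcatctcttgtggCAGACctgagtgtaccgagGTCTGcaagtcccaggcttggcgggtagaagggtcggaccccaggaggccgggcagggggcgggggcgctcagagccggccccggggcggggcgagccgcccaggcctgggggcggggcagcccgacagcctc
Hey2: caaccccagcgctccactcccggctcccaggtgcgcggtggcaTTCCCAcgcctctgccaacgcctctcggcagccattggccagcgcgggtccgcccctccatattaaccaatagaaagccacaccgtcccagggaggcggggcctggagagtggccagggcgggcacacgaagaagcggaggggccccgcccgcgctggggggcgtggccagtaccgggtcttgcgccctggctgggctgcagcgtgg
Rbpj: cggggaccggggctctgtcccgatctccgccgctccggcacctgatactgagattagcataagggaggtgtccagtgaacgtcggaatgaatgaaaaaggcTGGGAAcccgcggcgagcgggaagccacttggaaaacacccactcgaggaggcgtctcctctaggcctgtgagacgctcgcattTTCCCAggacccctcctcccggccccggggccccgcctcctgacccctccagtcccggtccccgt
In the Notch3 stretch the pair of CAGAC matches starts 152 and 133 bases before the start site, one on each strand. In Hey2 the RBPJ core lies on the minus strand of the gene from 207 bases before the start, and Rbpj carries it on both strands, 149 and 65 bases before the start. Over 32841 promoters of the same length, 21.6% held TGGGAA, 42.2% CAGAC, 36.7% CACNAG and 6.02% CACGTG on either strand, so matches are common, and they describe letters rather than bound sites. Jag1 holds 1 CAGAC match and Dll1 holds 1 and 2 in its 2 entries, while Notch1, Notch2 and Jag2 hold neither of these 2 motifs in this window. CACNAG occurs in Notch1 and Notch2 with 1 match each and in Notch3 with 2, and CACGTG in no member with an entry.

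With TGFβ, ascending fibroblasts had less RNA of Notch1, Notch3, Jag1 and Jag2, and more of Hes1 and Heyl. Of the 9 members tested, 6 were called, 4 lower and 2 higher, where 55.8% of the 13917 genes tested were called, so the members' share lay near that of all genes and the description rests on which genes moved and by how much. The median log2 fold change of the 9 members was -0.22, beside -0.0044 over all genes tested. Notch3 and Jag2 had the largest falls and Heyl the largest rise. Treated and control libraries did not overlap for 61.3% of all genes tested, so a lack of overlap was common.

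Notch3, the receptor of mural cells, stood at 80.5, 92.8 and 80.2 normalised CPM in the ascending controls and at 23.5, 24.8 and 23.8 with TGFβ. It fell by 1.82 (SE 0.064, adjusted p = 2.67e-13), and the groups did not overlap. Notch1, the receptor best known from endothelium and blood cells, went from 18.3, 22 and 16.5 to 9.93, 8.61 and 10.2 and fell by 0.99 (SE 0.11, adjusted p = 9.42e-07), again with no overlap. Notch2 did not follow them. Its levels were 77.3, 80.7 and 75.8 in control and 79.1, 82.1 and 74.9 with TGFβ, and the difference was 0.01 (SE 0.047, adjusted p = 0.885), with the groups overlapping.

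Jag1, the main ligand of these cells, was lower with TGFβ in ascending fibroblasts, at 341, 326 and 338 normalised CPM against 457, 460 and 476 in control. It fell by 0.47 (SE 0.031, adjusted p = 9.77e-10), with every treated library under every control. Jag2, a second Jagged ligand, had 25, 12 and 12 counts in the controls and 0, 5 and 8 with TGFβ. The fitted change was -1.82 (SE 0.59, adjusted p = 0.0152). The call rested on few counts: without ascending control replicate 1 it was -1.46 with an adjusted p of 0.0911 and without ascending TGFβ replicate 1 -1.28 with an adjusted p of 0.0547 by the same edgeR test.

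Among the targets, Hes1 and Heyl rose in ascending fibroblasts. Hes1, a repressor that represses its own gene, went from 45.6, 47.2 and 41.8 to 62.7, 65.9 and 64.7 normalised CPM in ascending libraries and rose by 0.52 (SE 0.053, adjusted p = 3.01e-07). Heyl, the Hey-family member known from vascular smooth muscle, went from 2.43, 3.75 and 1.75 to 11.5, 8.09 and 8.09 and rose by 1.80 (SE 0.22, adjusted p = 3.24e-06). For both targets every treated library was above every control, where 61.3% of all genes tested did not overlap in one direction or the other. Hey1 and Hey2, the repressors associated with arterial identity, gave no call. Hey2 had 3.83, 4.35 and 3.85 in control and 3.76, 3.08 and 3.51 with TGFβ, a difference of -0.22 (SE 0.17, adjusted p = 0.300), although the groups did not overlap. Hey1 had 7, 18 and 11 counts in control and 26, 9 and 13 with TGFβ, overlapping, and its difference was 0.47 (SE 0.48, adjusted p = 0.43).

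These ascending calls used the 6 ascending libraries. When the 12 libraries were fitted together, with the divergent descending control in the shared estimate of spread, the values hardly moved but only Notch3 and Jag1 passed, and the adjusted p was 0.152 for Notch1, 0.193 for Hes1, 0.071 for Heyl and 0.243 for Jag2. Macrophage markers also moved: the sum of 8 such genes was 59.5, 388 and 62.5 normalised CPM in the ascending controls and 31.9 to 46.3 with TGFβ. All 8 were lower by the test, beside 55.8% of all genes called in either direction, and the part of these markers in the Notch results was not tested. Without ascending control replicate 2, the library with the high sum, the same count of 6 members was called.

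**Figure D2:**
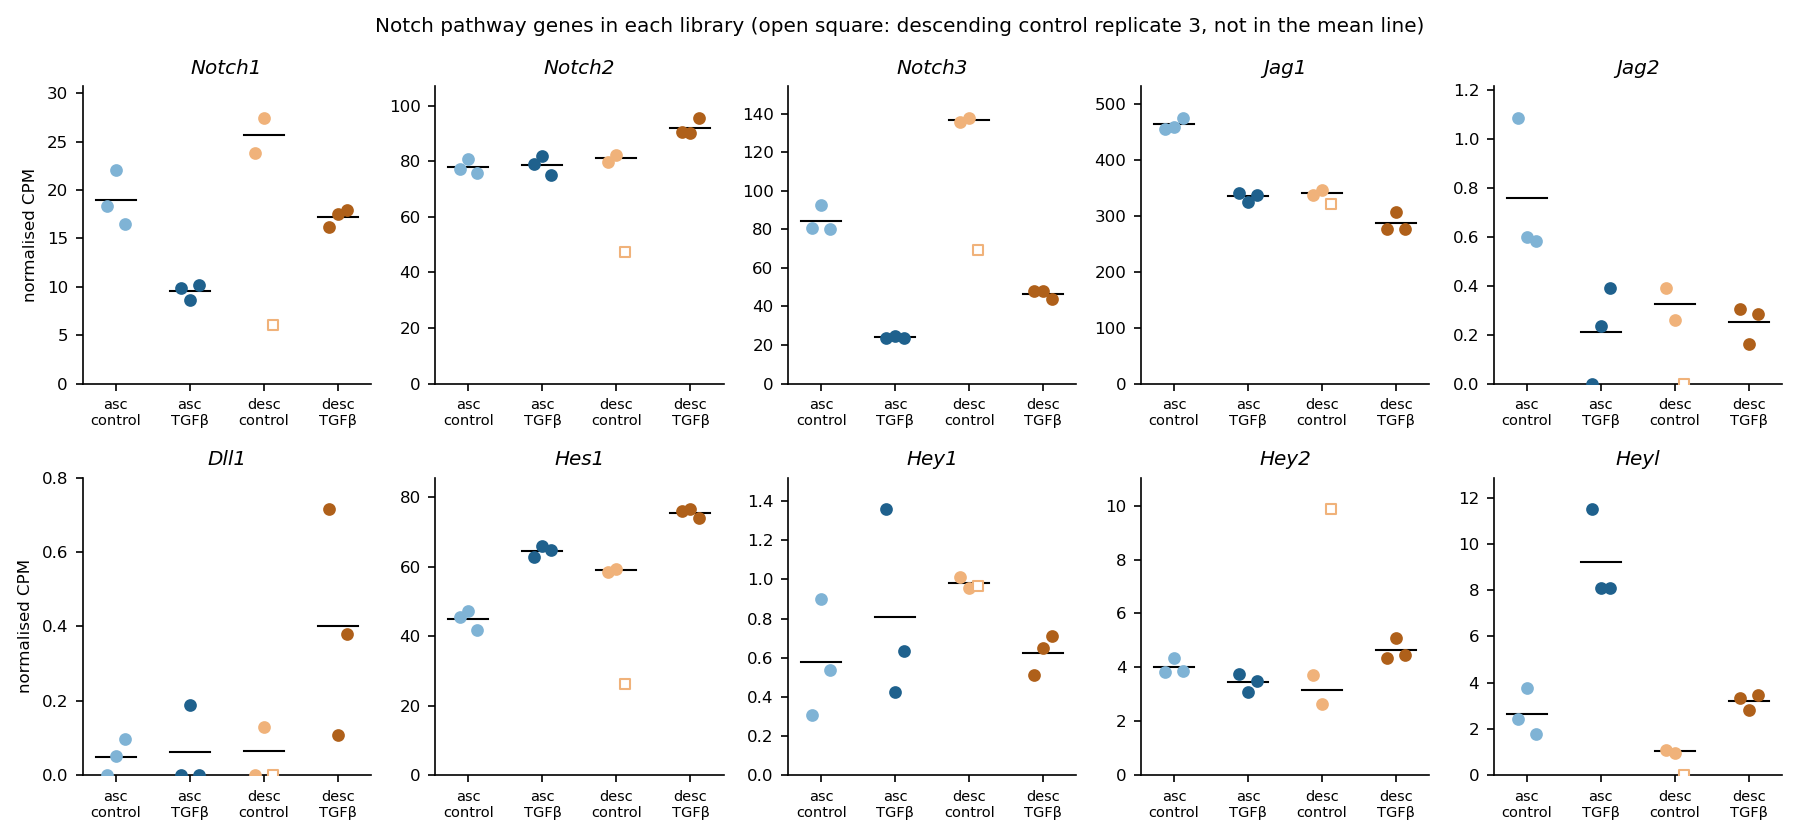
Normalised CPM of each member in the 12 libraries, by group, with a line at the group mean. The open square is descending control replicate 3, which is left out of its mean line. It lies far below the other descending controls for Notch1, Notch2, Notch3 and Hes1 and far above them for Hey2.

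In descending fibroblasts the result turned on the library that stood apart. With all 3 controls, Notch3 was the 1 member called of 8 tested, where 8.07% of 13825 genes were called. Without descending control replicate 3, 7 of 8 were called, Notch1, Notch3 and Jag1 lower and Notch2, Hes1, Hey2 and Heyl higher, where 52.9% of 14311 genes were called. Treated and control libraries did not overlap for 43.5% of all genes tested with that library and for 67.3% without it.

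Notch3 stood at 136, 138 and 69.5 normalised CPM in descending controls 1, 2 and 3 and at 47.8, 47.7 and 43.8 with TGFβ. It fell by 1.31 (SE 0.28, adjusted p = 0.0441), and without the third control it fell by 1.56 (SE 0.057, adjusted p = 6.98e-20). All treated libraries were under all controls in both sets. The call with all 3 controls was marginal, since the adjusted p lay between 0.125 and 0.215 when any of the remaining 5 libraries was omitted. Notch1 was at 23.9, 27.5 and 6.00 in the controls and 16.2, 17.5 and 18 with TGFβ, so the third control was the lowest of all 6 libraries and the other 2 the highest. The difference was -0.16 (SE 0.52, adjusted p = 0.884) with it, and without it Notch1 fell by 0.57 (SE 0.091, adjusted p = 4.68e-06). Notch2 was at 79.9, 82.2 and 47.3 and at 90.5, 90.2 and 95.6 with TGFβ. Its difference was 0.39 (SE 0.23, adjusted p = 0.355) with all controls, and without the third control it rose by 0.19 (SE 0.056, adjusted p = 0.00589).

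Jag1, the main ligand, had levels of 337, 346 and 322 normalised CPM in descending control and 278, 306 and 277 with TGFβ, and the groups did not overlap either way. The difference was -0.23 (SE 0.10, adjusted p = 0.256) with all controls, and without the third it fell by 0.25 (SE 0.051, adjusted p = 0.000144). Jag2 had 10, 6 and 0 counts in control and 6, 3 and 6 with TGFβ, and Dll1 had 0, 3 and 0 and 14, 2 and 8. Neither was tested, and Dll1 was above the floor of 3 counts only in 2 of the descending TGFβ libraries and in 1 ascending TGFβ library, where it had 4.

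Of the targets, Heyl was at 1.09, 0.955 and 0 normalised CPM in descending control and 3.32, 2.82 and 3.45 with TGFβ, so the treated libraries were all above the controls. The difference was 2.18 (SE 1.04, adjusted p = 0.276) with all controls, and without the third, in which Heyl had 0 counts, it rose by 1.64 (SE 0.27, adjusted p = 8.50e-06). Hes1 was at 58.6, 59.3 and 26.3 and 76.1, 76.5 and 74.1, with no overlap. The difference was 0.65 (SE 0.31, adjusted p = 0.284) with all controls, and without the third it rose by 0.36 (SE 0.059, adjusted p = 5.98e-06). Hey2 was the member whose direction turned. It was at 3.7, 2.65 and 9.87 in control, where the third library is the highest of the 12, and at 4.34, 5.1 and 4.45 with TGFβ. The difference was -0.23 (SE 0.52, adjusted p = 0.831) with this library, and without it Hey2 rose by 0.54 (SE 0.20, adjusted p = 0.0234). Hey1 had 26, 22 and 14 counts in control and 10, 12 and 15 with TGFβ. It was lower in each treated library in normalised CPM but was not called in either fit, at -0.65 (SE 0.47, adjusted p = 0.459) and, without the third control, -0.65 (SE 0.40, adjusted p = 0.182).

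**Figure D3:**
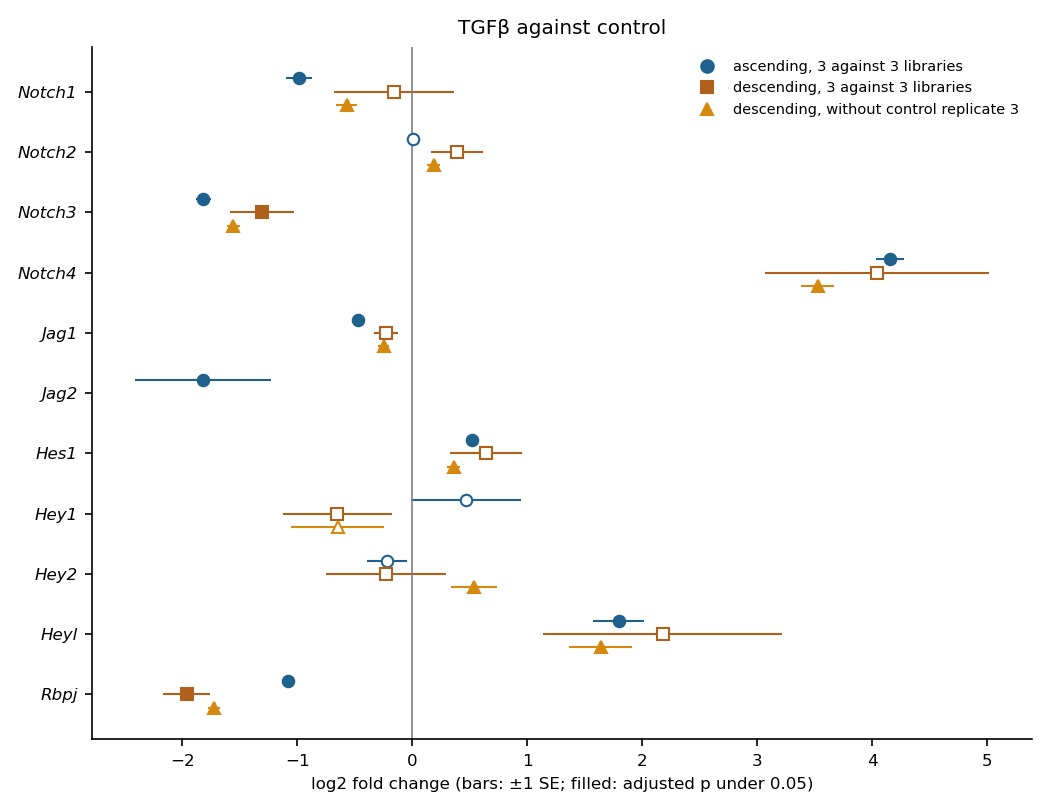
Log2 fold change of TGFβ against control for the members tested and for Notch4 and Rbpj, in ascending fibroblasts, in descending fibroblasts and in descending fibroblasts without control replicate 3. Bars are ±1 SE and filled symbols have an adjusted p under 0.05. Notch3, Rbpj and Jag1 lie left of 0 and Notch4, Hes1 and Heyl right of 0 in all 3 fits, and the bars shrink when the divergent control is left out.

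Whether the response differs between the sites was tested as the interaction, the TGFβ change in ascending minus that in descending fibroblasts. No member was called with 12 libraries by edgeR, where 0.806% of 14637 genes were called. At an unadjusted p under 0.05 there was 1 member, Jag1, beside 10.0% of all genes. DESeq2 called 0 members, with 419 genes called in all, and limma voom with sample quality weights called 2, with 1979 in all. Without descending control replicate 3, Jag1 was the 1 member called of 9 tested, where 13.5% of 15013 genes were called. Its interaction was -0.25 (SE 0.10, adjusted p = 0.422) with the 12 libraries and -0.22 (SE 0.059, adjusted p = 0.0124) without that control, so its fall was larger in ascending fibroblasts. The interactions of Notch3, -0.26 (SE 0.087, adjusted p = 0.0517), Hey2, -0.76 (SE 0.26, adjusted p = 0.0572), and Notch1, -0.41 (SE 0.15, adjusted p = 0.0681), in the same fit did not pass, and that of Heyl, 0.16 (SE 0.38, adjusted p = 0.86), had a wide error. The 2 TGFβ comparisons share no library with each other.

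The site comparisons share their libraries with the TGFβ comparisons, so their values stand side by side and are not independent of them. Under TGFβ, the site comparison uses none of the control libraries. Of 8 members tested, 6 were called, where 36.3% of 13678 genes were called: Notch1, Notch2, Notch3 and Hes1 were lower and Jag1 and Heyl higher in ascending fibroblasts. All 3 receptors thus stood lower at the ascending site. Notch3, at 23.5, 24.8 and 23.8 normalised CPM in ascending and 47.8, 47.7 and 43.8 in descending TGFβ libraries, differed by -0.95 (SE 0.063, adjusted p = 4.22e-13). Notch1 differed by -0.84 (SE 0.10, adjusted p = 4.88e-08) and Notch2 by -0.22 (SE 0.047, adjusted p = 0.000315). Heyl, at 11.5, 8.09 and 8.09 against 3.32, 2.82 and 3.45, differed by 1.52 (SE 0.16, adjusted p = 9.50e-09), the largest site difference of any member. Jag1 differed by 0.23 (SE 0.041, adjusted p = 4.86e-05) and Hes1 by -0.23 (SE 0.047, adjusted p = 0.000252). These 6 genes did not overlap between the sites, and neither did 46.1% of all genes tested. Hey2 also did not overlap and had -0.42 (SE 0.17, adjusted p = 0.0537), and Hey1 had 0.35 (SE 0.42, adjusted p = 0.574) with overlapping groups. In a single fit of the 12 libraries only Notch3 passed, and the adjusted p of the other 5 rose to between 0.089 and 0.894.

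In control cultures the site difference again turned on 1 library. With it, edgeR called 0 of 9 members, where 2.65% of 14090 genes were called, with 1 member, Jag1, at an unadjusted p under 0.05, beside 12.8% of all genes. DESeq2 called 1 member, with 1034 genes called in all, and limma voom with sample quality weights called 6, with 4392 in all. Without descending control replicate 3, 5 of 9 were called, where 31.6% of 14644 genes were called, Notch1, Notch3 and Hes1 lower and Jag1 and Heyl higher in ascending fibroblasts. The sites did not overlap for 35.3% of all genes tested with that library and for 54.4% without it. Jag1 stood at 457, 460 and 476 in ascending and 337, 346 and 322 in descending controls, with no overlap in either set, and differed by 0.47 (SE 0.10, adjusted p = 0.0729) with and 0.45 (SE 0.038, adjusted p = 5.66e-07) without that library. Notch3 differed by -0.43 (SE 0.28, adjusted p = 0.528) with and -0.68 (SE 0.062, adjusted p = 1.44e-06) without it. Heyl differed by 1.92 (SE 1.10, adjusted p = 0.506) with and 1.37 (SE 0.34, adjusted p = 0.00695) without it, and its 3 ascending controls were above all descending ones. Notch1 changed from -0.01 (SE 0.53, adjusted p = 0.993) to -0.43 (SE 0.11, adjusted p = 0.0078) and Hes1 from -0.09 (SE 0.32, adjusted p = 0.889) to -0.38 (SE 0.061, adjusted p = 0.000277). Notch2 was not called in either set, at 0.16 (SE 0.22, adjusted p = 0.739) and -0.04 (SE 0.053, adjusted p = 0.584). Jag2 was detected in all 3 ascending controls above the floor, at 1.09, 0.600 and 0.585 normalised CPM, and differed by 1.72 (SE 1.02, adjusted p = 0.512) with and 1.22 (SE 0.51, adjusted p = 0.0861) without the divergent library. Hey2 differed by -0.42 (SE 0.53, adjusted p = 0.715) with and 0.34 (SE 0.20, adjusted p = 0.236) without it, and Hey1 by -0.75 (SE 0.58, adjusted p = 0.584) and -0.76 (SE 0.45, adjusted p = 0.232).

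**Figure D4:**
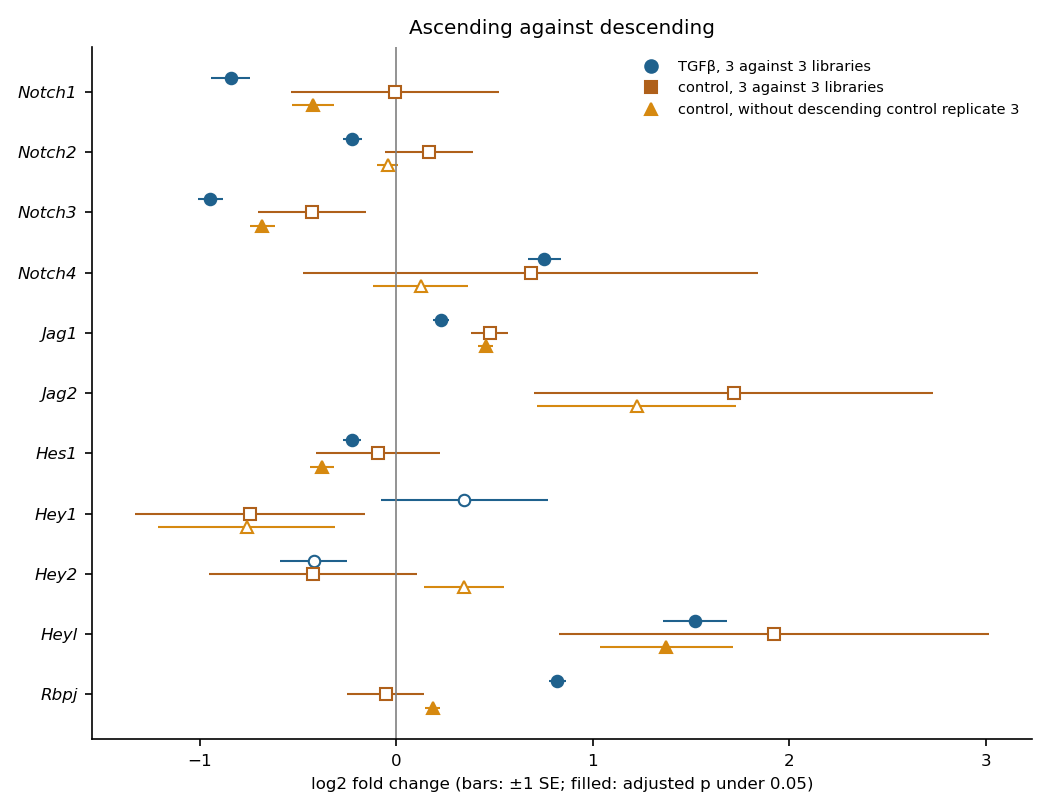
Log2 fold change of ascending against descending fibroblasts for the members tested and for Notch4 and Rbpj, under TGFβ, in control, and in control without descending control replicate 3. Bars are ±1 SE and filled symbols have an adjusted p under 0.05. Notch3 lies left of 0 and Jag1 and Heyl lie right of 0 in all 3 fits.

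From the 11 libraries other than descending control replicate 3, the 4 groups were fully ordered for Notch3 and Hes1, and in part for Notch1, Jag1, Heyl and Notch2. Notch3 took 4 separate levels, highest in descending control, then ascending control, descending TGFβ and ascending TGFβ, with no overlap between neighbours. Hes1 also took 4 separate levels, highest in descending TGFβ, then ascending TGFβ, descending control and ascending control. For Notch1 the descending controls were highest and ascending TGFβ lowest, while ascending control and descending TGFβ overlapped between them. For Jag1 the ascending controls were highest and descending TGFβ lowest, and the descending controls overlapped with ascending TGFβ. For Heyl ascending TGFβ was highest and descending control lowest, and ascending control and descending TGFβ overlapped. Notch2 was highest in descending TGFβ, and its other 3 groups overlapped.

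To place these patterns among other genes, log2 CPM was correlated over the same 11 libraries for the member of each role with the widest range between group means. These are descriptions over libraries that share treatment and site. Notch3, with a range of 2.50 on the log2 scale, was most like Islr (Pearson's r = 0.997), Man2a2 (0.993) and Fgf10 (0.992), a fibroblast growth factor. The group means of Islr, for example, were 107 normalised CPM in descending control without replicate 3, 68.3 in ascending control, 31.1 in descending TGFβ and 14.4 in ascending TGFβ. Heyl, with a range of 3.04, was most like Arhgef5 (0.968), Frrs1 (0.966) and St3gal5 (0.965). Jag2, with a range of 1.72 on few counts, was most like Acp6 (0.930), Ttc23 (0.919) and Neurl1a (0.907).

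Notch4, the endothelial member of the receptor family and no member of the gene set, had the largest change of any Notch receptor. It had 47, 45 and 49 counts in ascending control and 701, 981 and 748 with TGFβ, and 47, 53 and 0 in descending control and 436, 425 and 543 with TGFβ. Its group means were 2.23 ± 0.173 (SD, n = 3) and 39.8 ± 5.71 (SD, n = 3) normalised CPM at the ascending site and 2.06 ± 0.332 (SD, n = 2) and 23.7 ± 1.79 (SD, n = 3) at the descending site without control replicate 3. It rose by 4.16 (SE 0.12, adjusted p = 3.73e-14) in ascending fibroblasts. In descending fibroblasts the difference was 4.04 (SE 0.98, adjusted p = 0.0624) with all controls and 3.53 (SE 0.14, adjusted p = 8.62e-19) without the third. Per kb of exon, the treated levels of 4.52 to 5.76 in ascending libraries exceeded those of Notch3 there. Under TGFβ Notch4 was higher at the ascending site by 0.75 (SE 0.082, adjusted p = 1.24e-08). Endothelial markers did not move one way. Their sum over 10 genes went from 24.5 to 28.4 normalised CPM in ascending control to 8.85 to 10.6 with TGFβ, and from 25.3 to 26.9 to 12.7 to 15.1 at the descending site. Tie1 was at 0 in every library, and Tek, which made up most of the sum in the control libraries, fell by 2.56 (SE 0.10, adjusted p = 1.89e-12) in ascending fibroblasts, while Erg, an endothelial transcription factor, was called higher, with 1, 4 and 0 counts in ascending control and 68, 62 and 108 with TGFβ. In descending libraries Erg had 0, 0 and 0 counts in control and 55, 70 and 58 with TGFβ. The part of these markers in the Notch4 result was not tested.

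Of the other 58 pathway genes listed, 46 were tested in the ascending comparison, where 13 were called higher and 16 lower with TGFβ, beside 55.8% of all genes called. In descending fibroblasts 3 of 46 were called higher and 5 lower, beside 8.07% of all genes. Without control replicate 3 the counts were 10 and 13 of 46, beside 52.9% of all genes. At the ends of the pathway lay Rbpj, the DNA-binding partner of every Notch receptor, and the proteases. Rbpj fell from group means of 280 ± 3.31 (SD, n = 3) to 133 ± 3.74 (SD, n = 3) normalised CPM in ascending and from 249 ± 7.16 (SD, n = 2) without control replicate 3 to 75.3 ± 2.04 (SD, n = 3) in descending fibroblasts. Its TGFβ difference was -1.08 (SE 0.034, adjusted p = 6.40e-14) in ascending and -1.96 (SE 0.20, adjusted p = 0.00484) in descending fibroblasts, or -1.72 (SE 0.052, adjusted p = 5.25e-22) without that control. The interaction was 0.87 (SE 0.20, adjusted p = 0.0888) with the 12 libraries and 0.64 (SE 0.058, adjusted p = 1.93e-08) without that control, a larger fall at the descending site. Of Rbpj's 50-base exon sequences, 10.6% also occur in other genes, among them the pseudogene Rbpj-ps3.

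Of the 11 genes of the nuclear complex, 1 was called higher and Rbpj, Maml3 and Kat2b lower in ascending fibroblasts, beside 55.8% of all genes called. Maml3, a Mastermind co-activator, changed by -0.97 (SE 0.21, adjusted p = 0.00083) and Kat2b, a histone acetyltransferase, by -0.51 (SE 0.072, adjusted p = 1.55e-05). In descending fibroblasts 3 were called, again Rbpj, Maml3 and Kat2b, all lower, and without control replicate 3 there were 2 higher and 4 lower, these 3 among the lower. Of the 10 cleavage enzymes, 4 were higher and 3 lower in ascending fibroblasts, beside 55.8% of all genes called. Furin, which cuts the receptor precursor, rose by 0.64 (SE 0.037, adjusted p = 2.10e-10), and Adam10, the protease of ligand-induced cleavage, rose by 0.19 (SE 0.034, adjusted p = 0.000146). Adam17, a related protease, fell by 0.21 (SE 0.046, adjusted p = 0.00115) in ascending and fell by 0.92 (SE 0.14, adjusted p = 0.0145) in descending fibroblasts, or by 0.80 (SE 0.058, adjusted p = 7.63e-13) without control replicate 3. Its interaction of 0.71 (SE 0.13, adjusted p = 0.0339) was the 1 interaction called among the 46 pathway genes with 12 libraries.

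Of 12 endocytosis and degradation genes tested, 3 were called higher and 7 lower in ascending fibroblasts, where 3929 of all genes tested were called higher and 3838 lower. Neurl1a and Neurl1b are ubiquitin ligases of the Neuralized type, which act on Notch ligands. Neurl1a fell by 1.27 (SE 0.24, adjusted p = 0.000258) in ascending fibroblasts and Itch, a ubiquitin ligase, rose by 0.32 (SE 0.047, adjusted p = 2.23e-05). Under TGFβ Neurl1b was higher by 2.17 (SE 0.34, adjusted p = 6.79e-06) in ascending fibroblasts and Dtx4, a Deltex-family ligase, lower by 1.57 (SE 0.18, adjusted p = 3.17e-08). Of 4 glycosyltransferases tested, Lfng, which modifies the receptors' extracellular part, rose by 0.34 (SE 0.10, adjusted p = 0.0104) and Rfng fell by 0.26 (SE 0.069, adjusted p = 0.00437) in ascending fibroblasts, and none was called in descending fibroblasts in either set of libraries. Dlk1, a non-canonical ligand, was lower in ascending fibroblasts by 2.18 (SE 0.063, adjusted p = 1.83e-21) under TGFβ and by 2.15 (SE 0.17, adjusted p = 0.00455) in control, or by 2.27 (SE 0.068, adjusted p = 1.71e-11) without descending control replicate 3. It was the only pathway gene called in control with all libraries.

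Of the other listed targets, 5 were tested, and Myc, Bhlhe40 and Bhlhe41 were called higher and Ccnd1 lower with TGFβ at both sites. Myc rose by 1.42 (SE 0.052, adjusted p = 4.23e-13) and Bhlhe40 rose by 0.88 (SE 0.055, adjusted p = 5.87e-10) in ascending fibroblasts, and Ccnd1, the cyclin D1 gene, fell by 1.25 (SE 0.029, adjusted p = 1.46e-15). In descending fibroblasts Bhlhe40 rose by 1.57 (SE 0.17, adjusted p = 0.00553), Bhlhe41 rose by 0.77 (SE 0.13, adjusted p = 0.0202) and Ccnd1 fell by 1.17 (SE 0.16, adjusted p = 0.0115). Without control replicate 3 the differences were 1.44 (SE 0.074, adjusted p = 2.15e-16) for Bhlhe40, 0.77 (SE 0.085, adjusted p = 7.71e-09) for Bhlhe41 and -1.30 (SE 0.048, adjusted p = 8.11e-20) for Ccnd1. These genes have many inputs besides Notch. Of the 13 genes in this list, 8 were too low to test, among them Hes5, which had no count in any library, and Nrarp, a feedback inhibitor of the pathway, with at most 2 counts in a library.

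**Figure D5:**
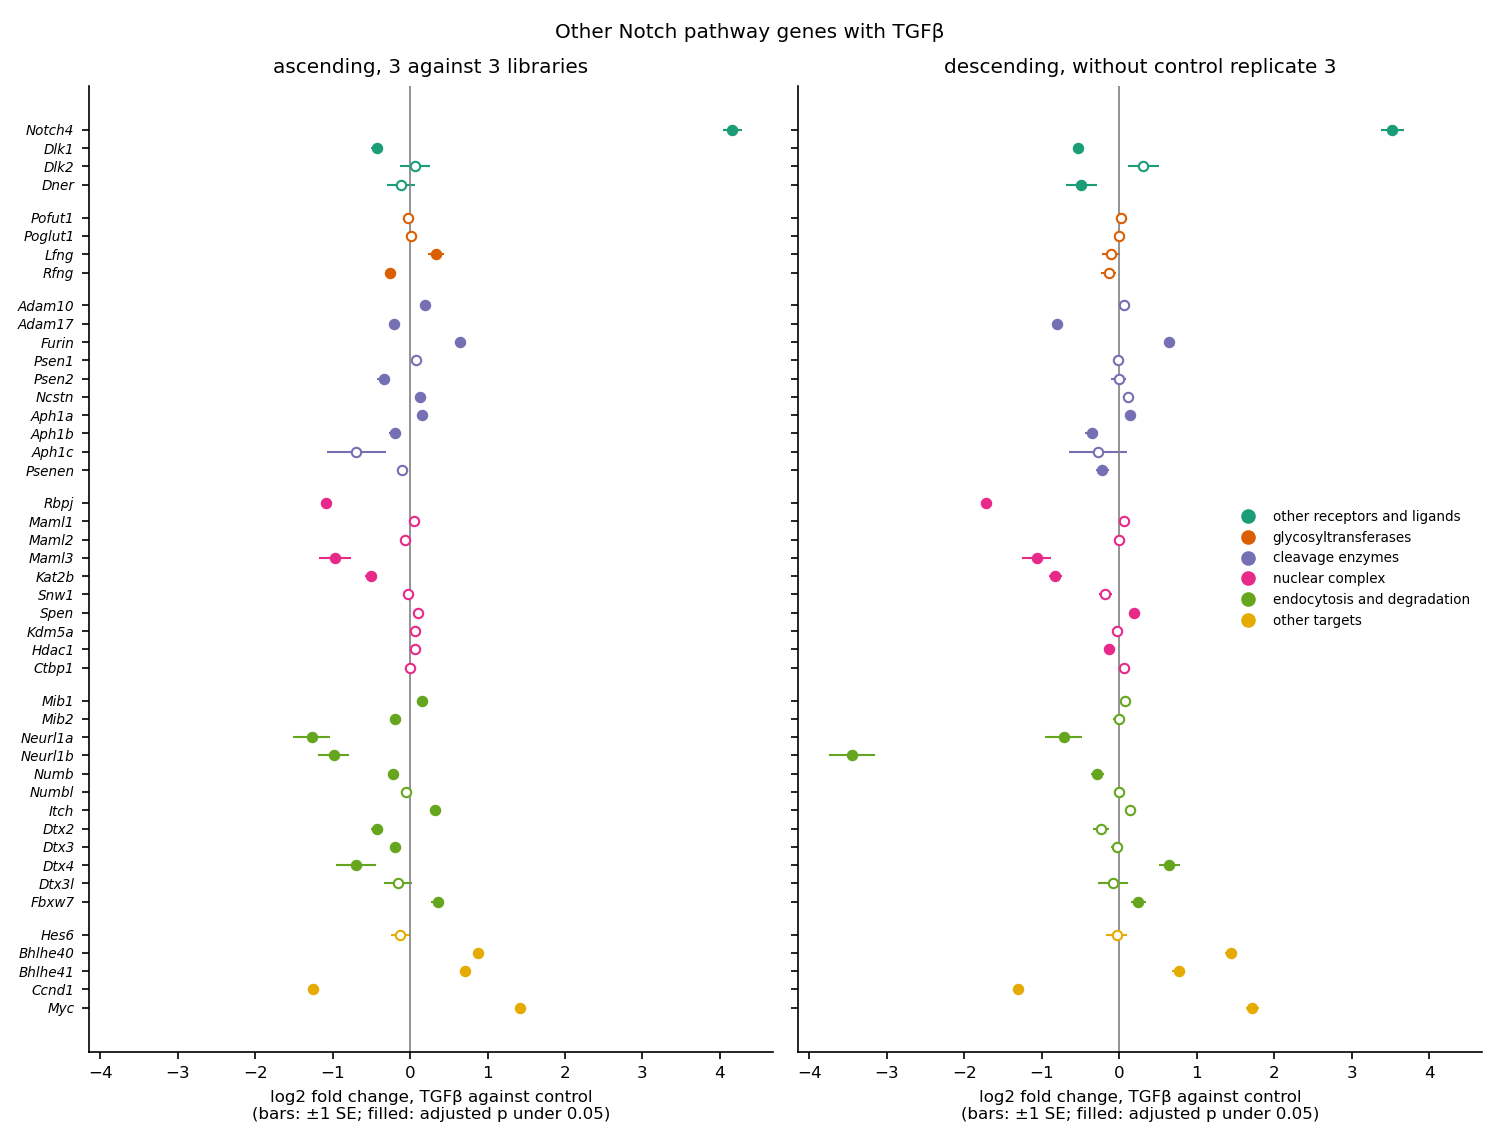
Log2 fold change of TGFβ against control for other pathway genes tested, coloured by role, in ascending fibroblasts and in descending fibroblasts without control replicate 3. Bars are ±1 SE and filled symbols have an adjusted p under 0.05. Notch4 lies far right at both sites, and Rbpj, Maml3, Kat2b and Ccnd1 lie left of 0 at both.

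Markers of other cells moved with site and treatment beside the Notch genes. The sum of 6 pericyte markers, carried by Cspg4, Mcam and Rgs5, was 139 to 148 normalised CPM in ascending control, 262 to 279 in ascending TGFβ, 79.9 to 210 in descending control and 501 to 576 in descending TGFβ libraries, with Kcnj8 and Higd1b at or near 0. All treated libraries of a site were above its controls in this sum, and its part in the TGFβ changes of the Notch genes was not tested. The sum of 6 mesothelial markers was 19.7 to 44.2 in ascending and 6.90 to 13.9 in descending libraries, with Wt1 and Krt8 at or near 0 throughout. It was carried by Upk3b in ascending libraries and by Krt19 in descending ones, and Krt19 went the other way from the sum, with group means of 3.71 and 3.57 in ascending control and TGFβ against 10.0 and 12.3 in descending. The macrophage sum was 59.5 to 388 in ascending and 28.9 to 53.0 in descending control, and 31.9 to 46.3 and 15.2 to 28.5 with TGFβ. That of 6 Schwann cell markers was 17.7 to 30.8 in ascending and 12.0 to 24.8 in descending libraries, and Sox10 was at 0 in all descending ones. S100b, the largest part of this sum, was not called by site under TGFβ or in control with all libraries. Its group means were 15.9 and 9.47 in ascending control and TGFβ. In descending they were 18.3, or 15.1 without control replicate 3, and 10.8. The part of these cells in the site differences of the Notch genes was not tested. Of 6 genes known to respond to TGFβ, 5 were called higher and 1 lower in ascending fibroblasts, beside 55.8% of all genes called. In descending fibroblasts 3 were called higher and 1 lower with all controls, beside 8.07% of all genes, and 5 higher and 1 lower without control replicate 3. The lower gene was Tgfbi each time, with group means of 31.9 in descending control with all controls and 5.44 in descending TGFβ.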

How the data were processed

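Bulk RNA-seq was analysed from 12 libraries of cultured adventitial fibroblasts in 4 groups of 3, grouped by the site and treatment on the labels. The authors aligned reads to mm10 with STAR and deposited raw counts per gene symbol from featureCounts. Their tool versions, strand setting and treatment of multi-mapping reads are not given in the sources used here. The submitters' processing notes also name FastQC and DESeq2. The labels and the study's methods differ on the age of the mice and on passages, and the labels are followed here.

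From the counts, genes were filtered with filterByExpr (minimum count 10, minimum total 15), scaled by TMM and tested with the quasi-likelihood F-test of edgeR 4.0.16 in R 4.3.3, each comparison on its own groups and the interaction over all 12 libraries. P-values were Benjamini-Hochberg adjusted over all genes tested, with a threshold of 0.05. The SE is the absolute log2 fold change divided by the square root of F. Group means of log2 CPM used a prior count of 2. DESeq2 1.42.0, limma 3.58.1, other scaling and filters, a replicate block, a single fit and leaving out each library were alternatives. The scripts were tested on simulated data. The members and gene lists were chosen with earlier results of these data known, as was the choice to give results without descending control replicate 3. All members are named, and of each pathway list and comparison up to 2 genes per direction with the smallest adjusted p. Some genes that the rule names are not reported here. Maml3, Hdac1, Tek, Erg, Nrarp and Hes5 were named after their values were seen. Gene positions and exon lengths are from GENCODE vM21 and promoters from RefSeq.

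Library totals of 16250126 to 23892943 counts limit the precision, as does the spread between libraries. For site in control, the median SE over all genes tested was 0.312 with descending control replicate 3 and 0.0958 without it. No unique molecular identifiers are named, so the floor of 3 counts covers counting error only.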

Additional observations from a re-analysis of the deposited data

Results flagged for a closer look

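Among the members and the pathway genes that the naming rule gives, the TGFβ change differed between the sites, by the interaction test of edgeR, for Adam17 with all 12 libraries and for 7 genes without descending control replicate 3, where 0.806% of 14637 and 13.5% of 15013 genes were called. Hdac1, a listed pathway gene that the rule does not give, was also called without that library, at 0.19 (SE 0.062, adjusted p = 0.0391). Marker genes of other cell types were not part of this count, and Tek was among those that differed, by -1.06 (SE 0.18, adjusted p = 0.0228) with the 12 libraries and -1.05 (SE 0.15, adjusted p = 1.72e-05) without that library. Adam17 had an interaction, ascending minus descending, of 0.71 (SE 0.13, adjusted p = 0.0339) with the 12 libraries and 0.60 (SE 0.071, adjusted p = 1.08e-06) without that library. Among the members Jag1 differed, by -0.22 (SE 0.059, adjusted p = 0.0124). Without that library the value was 0.64 (SE 0.058, adjusted p = 1.93e-08) for Rbpj and 2.46 (SE 0.36, adjusted p = 2.24e-05) for Neurl1b, both positive. It was negative for Bhlhe40, -0.56 (SE 0.094, adjusted p = 0.000136), for Dtx4, -1.34 (SE 0.30, adjusted p = 0.00304), and for Myc, -0.29 (SE 0.10, adjusted p = 0.0454). In the fit of 12 libraries Jag1, Rbpj, Bhlhe40, Myc, Neurl1b and Dtx4 were not called, with adjusted p values of 0.422, 0.0888, 0.137, 0.939, 0.600 and 0.303. Myc changed sign between these fits, from 0.05 to -0.29. With 3 libraries a group, no library was tested as an outlier within its group.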

How the results depend on the processing

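Descending control replicate 3 decided most of what changed. It had the lowest total, 16250126 counts, and the fewest genes detected, and the cause was not tested. Counts near the floor limit Jag2, Dll1 and Hey1. Under TGFβ, member calls by site held in every leave-one-out fit, and the ascending calls in all but those without ascending control replicate 1 or ascending TGFβ replicate 1, where Jag2 was lost.

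Of all genes, 374 were called between sites in control, 1115 for TGFβ in descending fibroblasts and 118 for the interaction. In this order DESeq2 called 1034, 2242 and 419, and limma voom with sample quality weights called 4392, 7335 and 1979. Without descending control replicate 3, DESeq2 called 3537, 6169 and 1732. No filter on low counts gave 56 interactions. A fit of the 12 libraries together called 1545 for site in control, 1106 for site under TGFβ, 2338 for TGFβ in ascending and 3570 in descending fibroblasts, and among the members 1, 1, 2 and 3. Leaving out 1 library gave 33 to 4631 genes and 0 to 5 members for site in control, 213 to 7576 and 0 to 7 for TGFβ in descending fibroblasts, and 25 to 2022 and 0 to 1 for the interaction, the highest each time without descending control replicate 3. In the same order of these 3 comparisons the members called numbered 6, 7 and 2 by limma voom and 5, 6 and 1 by DESeq2 without that library, and DESeq2 with all libraries called 1 for site in control.

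Same-numbered libraries correlated in their deviations from the group means at -0.026 to 0.088, under the 0.1 asked of every pair, so the numbers were not taken to pair the samples, although 8 of 12 were closest to their own number, a hint from the data, and pairing remains unknown. With the replicate block, 0 genes were called for site in control, 95 for TGFβ in descending fibroblasts, with 0 members, and 50 interactions. Notch1 then reversed to 0.23 in the site comparison of controls and to 0.074 for TGFβ in descending fibroblasts, where Hey2 was 0.0053. With the block and without descending control replicate 3, an alternative chosen after seeing the data, as was DESeq2 without it, the counts were 4664, 7168 and 2024 genes and 5, 7 and 2 members. Hey2 was 0.38 for site in control and 0.57 for TGFβ in descending fibroblasts, Notch2 -0.025 for site in control, and the interactions of Hes1, Heyl and Myc 0.14, 0.067 and -0.28.

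Other signs turned as follows, with the cause not tested. For site in control, Notch1 was 0.0024 by DESeq2, Notch2 -0.052 by limma voom and -0.041 by DESeq2 without descending control replicate 3, and Hey2 0.38 and 0.35. For TGFβ in descending fibroblasts Hey2 was 0.57 and 0.55 by these. The interactions were 0.18 and 0.14 for Hes1, 0.21 and 0.14 for Heyl, and -0.27 and -0.31 for Myc. With at least 10 counts in every library, Notch2 was -0.00041 for TGFβ in ascending fibroblasts and the interaction of Hey2 0.0022. Leaving out 1 library gave, for site in control, -0.43 to 0.34 for Notch1, -0.044 to 0.30 for Notch2, -0.38 to 0.082 for Hes1 and -0.75 to 0.34 for Hey2. It gave -0.24 to 0.66 for Hey1 by site under TGFβ, and for TGFβ in ascending fibroblasts -0.019 to 0.048 for Notch2 and -0.12 to 0.92 for Hey1. For TGFβ in descending fibroblasts it gave -0.57 to 0.20 for Notch1 and -0.55 to 0.54 for Hey2. The interactions ranged from -0.30 to 0.16 for Hes1, -0.76 to 0.32 for Hey2, -0.78 to 0.16 for Heyl and -0.29 to 0.24 for Myc.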
